A study of Mus musculus with 4 samples.

Results

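Alveolar macrophages are the resident phagocytes of the airspace. They take up inhaled particles and spent surfactant, and their identity depends on granulocyte-macrophage colony-stimulating factor and TGF-beta, which induce the lipid-sensing nuclear receptor PPARG. The 10 genes described here are markers of this cell type in mouse lung: Pparg itself, the surface receptors Marco, Mrc1 and Siglecf, the secreted lectin Chil3, the lipid and lysosome genes Fabp1, Ctsk and Atp6v0d2, and Krt79 and Plet1, which are better known from epithelia. They were chosen by gene symbol. Each symbol matched 1 Ensembl gene of the 46603 in the unfiltered table, and all 10 are also among the 12850 genes of the filtered table, on which the tests were run.

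RNA came from whole, unsorted lungs of 4 mice, described as littermates on the C57Bl/6 background, 6 to 8 weeks old. Which of them shared a litter is not given in the labels. The WT group of 2 mice carried Ifnar1+/+, and the SA group of 2 mice carried the Ifnar1 S526A allele, a serine-to-alanine change in a chain of the type I interferon receptor that is known to slow the receptor's degradation. Every mouse, WT or SA, was given B16F10 melanoma conditioned medium intravenously, 100 µl at a time, 3 times a week over 3 weeks. Untreated lungs were not analysed here, so SA against WT is a genotype comparison under conditioned medium, and it asks whether the alveolar macrophage signature of these lungs differs between receptor genotypes.

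The libraries held 27381916 to 38378936 reads assigned to genes. Values are log2 CPM, the log2 of read counts scaled to the library total (CPM), and differences are SA minus WT in log2 units with the standard error (SE) of a limma fit across all genes. In that fit 40 genes, or 0.311% of those tested, passed an adjusted p of 0.05, with 21 higher and 19 lower in SA. After median centring of each library 3.7% passed, 169 higher and 307 lower. Ifnar1 mRNA averaged 6.11 ± 0.04 over the WT and 6.13 ± 0.13 over the SA libraries (SD, n = 2), which does not check a point mutation. Among 11 tested genes of the type I interferon response 7 passed, all higher in SA, beside 0.163% of all genes. Genes of other tissues also differed between libraries: in the order WT 1, WT 2, SA 1 and SA 2, adipocyte genes averaged 2.93, 6.24, 4.18 and 6.90 log2 CPM and muscle genes 5.32, 5.89, 6.92 and 7.57.

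Promoter sequences of 3 of the genes are shown first. Ctsk and Plet1 are the markers whose SA libraries both lay above both WT libraries, as they did for 37.8% of all genes. Fabp1 is a textbook target of the PPAR family. The windows run from 250 bases before to 50 bases after the RefSeq start of each gene on GRCm38.p6, written 5′ to 3′ on the gene's strand. Capitals mark the PU.1 core GAGGAA or its reverse complement TTCCTC, bound by a master factor of macrophages. They also mark the nuclear receptor hexamer AGGTCA or its reverse complement TGACCT. The sequences are from chr3:95498960-95499259 for Ctsk, chr9:50494275-50494574 for Plet1 and chr6:71199629-71199928 for Fabp1, all on the plus strand.
Ctsk: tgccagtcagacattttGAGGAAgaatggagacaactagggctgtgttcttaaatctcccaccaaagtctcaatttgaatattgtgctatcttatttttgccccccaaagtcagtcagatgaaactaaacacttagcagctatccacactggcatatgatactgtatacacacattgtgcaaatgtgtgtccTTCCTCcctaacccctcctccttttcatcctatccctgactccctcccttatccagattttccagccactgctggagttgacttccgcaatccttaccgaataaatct
Plet1: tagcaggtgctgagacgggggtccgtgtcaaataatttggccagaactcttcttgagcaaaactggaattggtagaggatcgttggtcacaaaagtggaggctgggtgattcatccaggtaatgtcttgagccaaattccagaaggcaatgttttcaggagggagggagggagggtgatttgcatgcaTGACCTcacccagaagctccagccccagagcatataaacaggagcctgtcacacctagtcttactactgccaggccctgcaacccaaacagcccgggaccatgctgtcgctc
Fabp1: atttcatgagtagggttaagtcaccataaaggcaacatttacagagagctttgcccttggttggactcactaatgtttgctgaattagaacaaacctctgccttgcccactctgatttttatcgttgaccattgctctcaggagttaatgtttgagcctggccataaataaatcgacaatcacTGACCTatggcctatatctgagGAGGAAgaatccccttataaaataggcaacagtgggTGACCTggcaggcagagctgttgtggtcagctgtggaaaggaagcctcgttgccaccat
The Ctsk window holds the PU.1 core at 2 positions and no nuclear receptor hexamer. Plet1 has the hexamer at 1 position, and Fabp1 has the hexamer at 2 positions and the PU.1 core at 1. The motifs share no base in these windows. RefSeq promoters were found for 9 of the 10 genes, 11 windows in all. The PU.1 core occurred in 6 of these 11 and in 28.3% of all 32851 promoter windows, and the hexamer in 4 of the 11 and in 16.3% of all. A match of letters is a description and not a binding site.

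None of the 10 alveolar macrophage markers differed between SA and WT lungs at the threshold. By limma 0 of 10 passed, beside 0.311% of all genes. With voom on the recovered reads and library totals 0 of 10 passed, beside 268 of all 12850 genes. In the limma fit 1 of 10, Ctsk, had an unadjusted p under 0.05, beside 27.3% of all genes. The differences ran from -0.31 for Siglecf to 0.39 for Ctsk, with 5 genes higher and 5 lower in SA, where 39.6% of all genes had the lower mean in SA. Their median was 0.05, and the median over all 12850 genes was 0.06. The SA libraries lay wholly above the WT libraries for 2 markers, beside 37.8% of all genes, and wholly below for 0, beside 22.9%. For 60.7% of all genes the groups did not overlap. With 2 libraries a group no permutation of the samples gives a p below 0.333, so each p rests on the limma model. The design gives 2 biological replicates a genotype but the labels do not number the animals, and the p-values measure only the spread between these libraries.

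**Figure D1:**
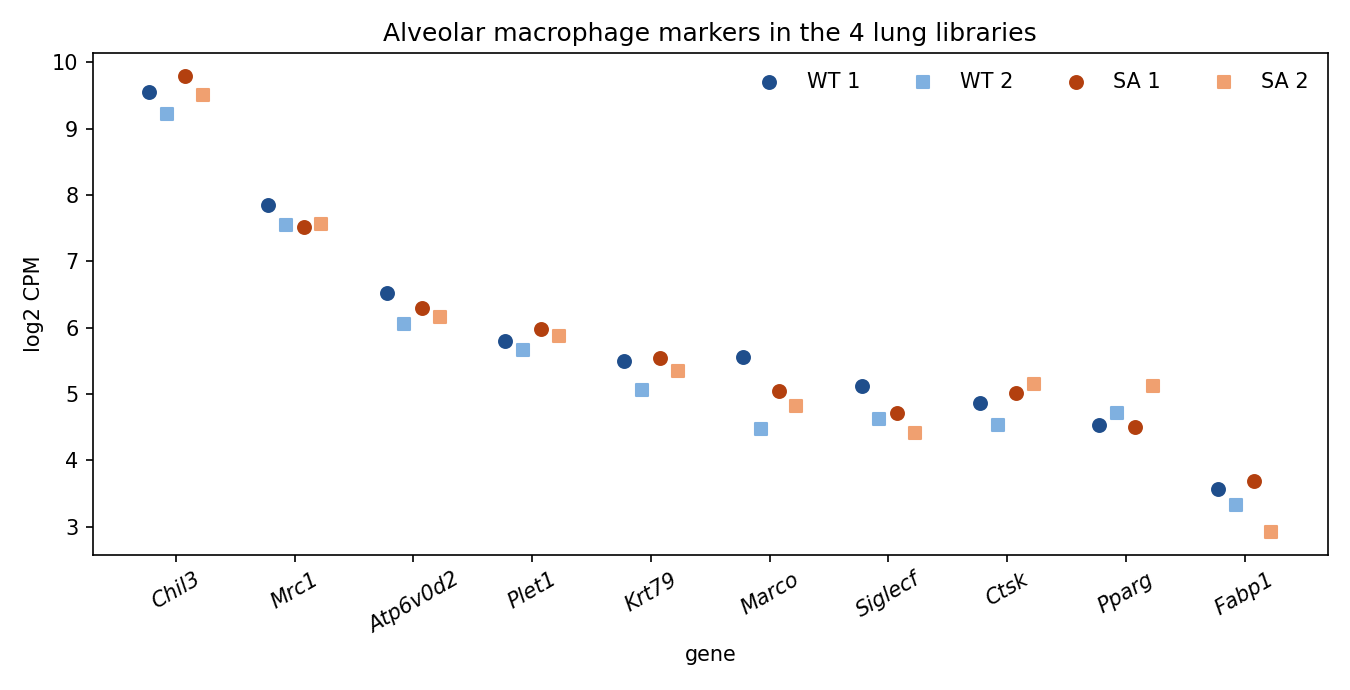
Log2 CPM of the 10 alveolar macrophage markers (x axis, ordered by their WT mean) in each of the 4 lung libraries; each point is 1 library, blue for WT and orange for SA, circles for the first and squares for the second library. Chil3 lies highest at 9.23 to 9.80, and the blue and orange points interleave for all genes other than Plet1 and Ctsk.

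Pparg encodes the nuclear receptor that sets alveolar macrophage identity and, in other cells, drives fat cell formation. The gene (ENSMUSG00000000440) spans 115360951 to 115490399 of chromosome 6, plus strand, in GENCODE M21 on GRCm38, the annotation used for all positions here. Its level was 4.54 and 4.72 log2 CPM in WT 1 and WT 2, against 4.51 and 5.12 in SA 1 and SA 2. SA 2 stood highest and SA 1 lowest, so the SA group enclosed the WT group. The difference was 0.19 ± 0.23 (SE; 95% interval -0.43 to 0.81, adjusted p = 0.63 by limma). Pparg was the only marker higher in the second library of both genotypes, by 0.18 in WT and by 0.61 in SA. The adipocyte list had 7 of its 7 tested genes higher in the second library of each genotype, with median steps of 3.71 in WT and 2.33 in SA. Within it, Ucp1 stepped by 2.84 in WT and 5.52 in SA, and Cidea by 2.29 and 4.06. These genes had their larger step in SA, as Pparg did, and the other tested genes of the list had it in WT. The list's summed level was 94.996 to 1038 CPM in WT and 271.8 to 1212 CPM in SA, over 8 listed genes. None of the 7 passed by limma, and their part in the Pparg values was not tested.

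The 3 surface receptors had lower means in SA without passing the test. Marco, a scavenger receptor gene on the minus strand of chromosome 1 (120474538 to 120505024), read 5.56 and 4.47 log2 CPM in WT 1 and WT 2, against 5.05 and 4.82 in SA 1 and SA 2. Both SA values fell between the WT values, and the WT pair stood 1.09 log2 units apart, the widest step of any marker. The difference was -0.08 ± 0.39 (SE; 95% interval -1.13 to 0.97), an interval that spans a ratio of SA to WT from 0.458 to 1.96. It was 0.47 without WT 1 and -0.62 without WT 2.

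Siglecf, a sialic acid-binding inhibitory receptor encoded on the plus strand of chromosome 7 (43351341 to 43359531), read 5.12 and 4.63 log2 CPM in WT 1 and WT 2, against 4.71 and 4.42 in SA 1 and SA 2. SA 1 lay just above WT 2, so the groups overlapped by a narrow margin. The difference was -0.31 ± 0.21 (SE; adjusted p = 0.38 by limma), a ratio of 0.807 with a 95% interval from 0.548 to 1.19. It was -0.55 without WT 2 and -0.07 without WT 1. Siglecf also marks eosinophils, whose genes had few reads. Epx, eosinophil peroxidase, had 0 or 1 read in each library and Prg2, major basic protein, 5 to 50. Il5ra, the interleukin-5 receptor chain and the most abundant of the list, had 12, 88, 29 and 39 reads in WT 1, WT 2, SA 1 and SA 2. The 4 eosinophil genes together summed to 1.01 to 3.92 CPM in WT and 1.86 to 2.74 CPM in SA.

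Mrc1, the macrophage mannose receptor gene on the plus strand of chromosome 2 (14229392 to 14332057), read 7.86 and 7.54 log2 CPM in WT 1 and WT 2, against 7.51 and 7.56 in SA 1 and SA 2. WT 1 was the high library, and the other 3 lay within a few hundredths of one another. The difference was -0.16 ± 0.12 (SE; 95% interval -0.49 to 0.16, adjusted p = 0.43 by limma), and it was -0.0057 without WT 1. Mrc1 is shared with interstitial macrophages and with lymphatic vessels. The interstitial macrophage list, with the complement genes C1qa and C1qb, had 10 of 12 genes higher in WT 2 than in WT 1, where Mrc1 was at a step of -0.31, and 9 of 12 higher in SA 2 than in SA 1, where Mrc1 was at a step of 0.05. C1qa itself was at 4.91, 5.63, 5.35 and 5.83 in WT 1, WT 2, SA 1 and SA 2. Over the interstitial list 9 of 12 genes were higher and 3 lower in SA, with a median difference of 0.21. The 2 most abundant genes on this list, Lyve1 at -0.62 ± 0.20 and Stab1 at -0.22 ± 0.07 (SE; adjusted p = 0.15 and 0.14 by limma), are also endothelial. Of 5 tested lymphatic vessel genes, Lyve1 among them, 3 were higher and 2 lower in SA, with a median difference of 0.05. The part of either list in the Mrc1 values was not tested.

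Chil3 encodes a chitinase-like lectin that binds sugars without cutting chitin, and it was by far the most abundant marker. The gene spans 106147554 to 106167564 of chromosome 3, minus strand. Its level was 9.56 and 9.23 log2 CPM in WT 1 and WT 2, against 9.80 and 9.51 in SA 1 and SA 2, on 18951 to 27949 reads. The first library was the higher in both genotypes, and SA 2 fell just below WT 1. The difference was 0.26 ± 0.17 (SE; 95% interval -0.20 to 0.72, adjusted p = 0.38 by limma), and it was 0.10 without WT 2 and 0.43 without WT 1. Of the distinct 50-base words in Chil3 transcripts, 26.9% also occur in Chil4 or the gene model Gm6522. Chil4 was listed with 37 to 225 reads per library, and how reads shared between these genes were assigned is not given in the sources at hand. Chil3 is also made by neutrophils. In the order WT 1, WT 2, SA 1 and SA 2, the 10 neutrophil genes summed to 59.7, 157, 485 and 1231 CPM, in the last 3 mostly through Ltf, lactoferrin, which glands also make and which had 437, 3776, 12069 and 45823 reads in that order. S100a9, a calprotectin gene, averaged 3.55 ± 0.34 over the WT and 3.72 ± 0.17 over the SA libraries, and Retnlg had 62 to 114 reads. By library S100a9 read 3.79 and 3.31 log2 CPM in WT 1 and WT 2, against 3.84 and 3.61 in SA 1 and SA 2. That is the ranking of the libraries seen for Chil3. The step from first to second library had a median of -0.31 in WT and -0.26 in SA over the 8 tested neutrophil genes. It was upward for 3 of them in WT and for 2 in SA. Chil3 stepped by -0.33 in WT and -0.29 in SA. By limma 0 of the 8 neutrophil genes tested passed, and their part in the Chil3 values was not tested.

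The lipid and lysosome genes did not move as a block. Fabp1, a fatty acid-binding protein gene known best from liver and gut (chromosome 6, plus strand, 71199827 to 71205023), had the fewest reads of the markers, 290 to 364 per library. It read 3.57 and 3.33 log2 CPM in WT 1 and WT 2, against 3.69 and 2.92 in SA 1 and SA 2. SA held both the highest and the lowest library. The difference was -0.14 ± 0.29 (SE; 95% interval -0.94 to 0.66), with the value 0.24 without SA 2 and -0.53 without SA 1. The 6 liver genes summed to 30.1 to 325.9 CPM in WT and 63.6 to 209 CPM in SA, mostly through Cyp2e1, which fat also expresses and which had 556, 10143, 1645 and 7829 reads in WT 1, WT 2, SA 1 and SA 2. Alb, the serum albumin gene, had 294, 134, 75 and 162 reads in that order. Their part in the Fabp1 values was not tested.

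Ctsk encodes cathepsin K, a collagen-cleaving protease of osteoclasts that is also high in alveolar macrophages. The gene spans 95499256 to 95509362 of chromosome 3, plus strand. Its level was 4.86 and 4.52 log2 CPM in WT 1 and WT 2, against 5.01 and 5.15 in SA 1 and SA 2. Both SA libraries exceeded both WT libraries, and the gap from WT 1 to SA 1 was smaller than the step between the WT libraries. The difference was 0.39 ± 0.14 (SE; 95% interval 0.0091 to 0.76), a ratio of 1.31, with an unadjusted p of 0.047 and an adjusted p of 0.18 by limma. It was 0.22 without WT 2 and 0.55 without WT 1. Fibroblasts can express Ctsk as well. Of 8 fibroblast genes 3 were higher and 5 lower in SA, among them Dcn at 0.42 ± 0.24 and Col3a1 at -0.45 ± 0.09 (SE; adjusted p = 0.33 and 0.083 by limma). The summed fibroblast level was 1589 to 1757 CPM in WT and 1378 to 1554 CPM in SA, and its part in the Ctsk values was not tested.

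Atp6v0d2, a subunit of the proton pump that acidifies lysosomes (chromosome 4, minus strand, 19876841 to 19922605), read 6.53 and 6.06 log2 CPM in WT 1 and WT 2, against 6.30 and 6.15 in SA 1 and SA 2. Both SA libraries fell between the WT libraries. The difference was -0.07 ± 0.18 (SE; 95% interval -0.54 to 0.41), and its sign turned without WT 1 (0.17). The widely expressed paralog Atp6v0d1 averaged 6.83 ± 0.07 over the WT and 6.87 ± 0.01 over the SA libraries. Among 14 tested genes shared by lysosomes and osteoclasts, 0 passed by limma, 0 by voom and 0 had an unadjusted p under 0.05, with a median difference of 0.04. Of the osteoclast fusion genes, Ocstamp had 3 to 6 reads in each library. Dcstamp, in the unfiltered table only, had 5, 4, 16 and 16 reads in WT 1, WT 2, SA 1 and SA 2, a difference of 1.67 ± 0.69 (SE; unadjusted p = 0.027, adjusted p = 0.23 by limma).

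Krt79 and Plet1 had higher means in SA. Krt79, a type II keratin of skin appendages that mouse alveolar macrophages also express (chromosome 15, minus strand, 101929332 to 101940324), read 5.50 and 5.06 log2 CPM in WT 1 and WT 2, against 5.54 and 5.35 in SA 1 and SA 2. WT 2 was the low library and the other 3 lay close together. The difference was 0.17 ± 0.17 (SE; 95% interval -0.30 to 0.64), and it was -0.051 without WT 2. The basal cell keratin Krt5 was at 3.40, 5.57, 5.03 and 6.46 in WT 1, WT 2, SA 1 and SA 2. Of 8 tested airway and squamous epithelium genes 7 were higher and 1 lower in SA, with a median difference of 0.95. By limma 0 of them passed, beside 0.311% of all genes, and by voom 1, beside 268 of all 12850 genes. The most abundant, Scgb1a1 and Scgb3a2, differed by 0.29 ± 0.76 and 1.12 ± 0.30 (SE; adjusted p = 0.83 and 0.12 by limma). The part of epithelial genes in the Krt79 and Plet1 values was not tested.

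Plet1, a membrane protein anchored by a lipid tail and named for its expression in placenta (chromosome 9, plus strand, 50494525 to 50505482), read 5.80 and 5.67 log2 CPM in WT 1 and WT 2, against 5.98 and 5.88 in SA 1 and SA 2. Both SA libraries lay above both WT libraries, by a margin of less than the step within either genotype. The difference was 0.20 ± 0.08 (SE; 95% interval -0.02 to 0.41, unadjusted p = 0.063, adjusted p = 0.21 by limma), a ratio of 1.15. It was 0.13 without WT 2, 0.26 without WT 1 and 0.11 with median centring. The antisense gene Plet1os overlaps 13.4% of the annotated Plet1 exon length. The libraries were made with a stranded kit, but whether the counting used strand is not given in the sources at hand. Plet1os itself had 55 to 102 reads, against 1608 to 2256 for Plet1.

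**Figure D2:**
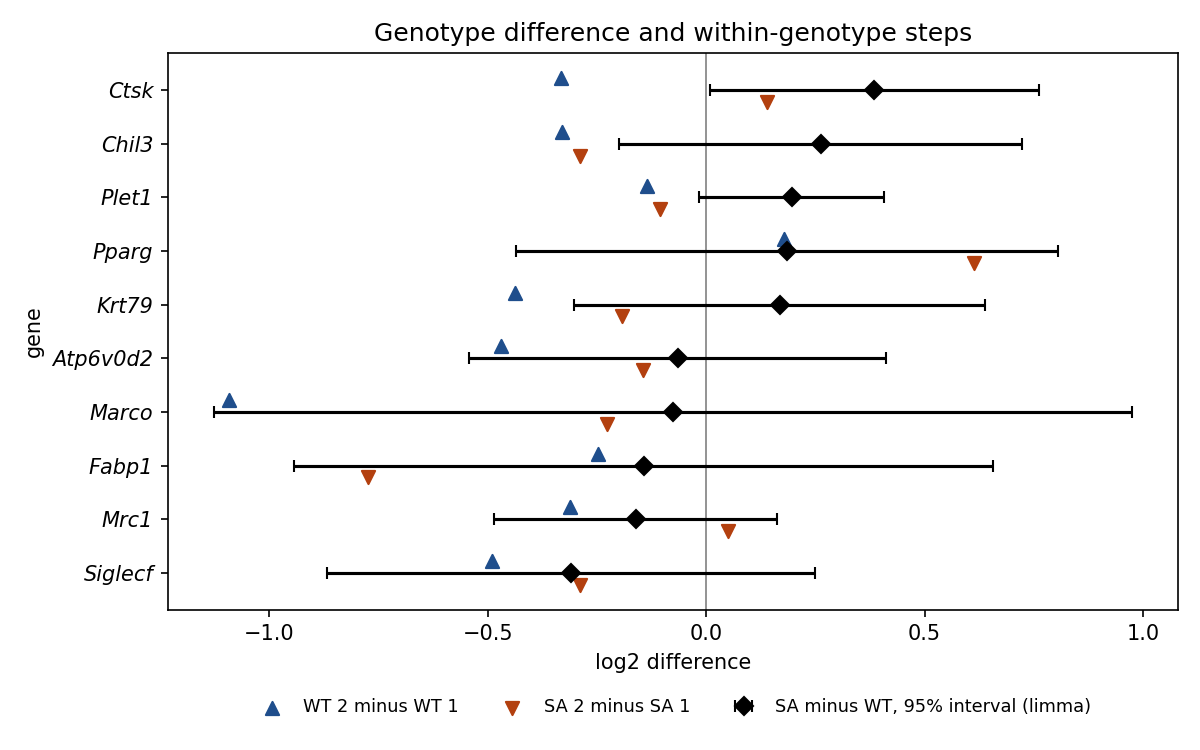
Log2 differences for each marker: black diamonds give SA minus WT with the 95% interval of the limma fit, blue triangles WT 2 minus WT 1 and orange triangles SA 2 minus SA 1. The Ctsk interval alone, from 0.0091 to 0.76, leaves out 0, and 9 of the 10 blue triangles lie left of 0.

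The larger of the 2 steps between libraries of 1 genotype exceeded the genotype difference for 8 of the 10 markers, beside 51.2% of all genes, and both steps exceeded it for 5 of 10, beside 24.0%. Compared with WT 1, WT 2 was lower for 9 of 10, beside 53.5% of all genes, with a median step of -0.33 against -0.013 over all genes. Compared with SA 1, SA 2 was lower for 7 of 10, beside 51.4% of all genes, with a median step of -0.17 against -0.0053. A drop in the second library of both genotypes was seen for 7 of 10 markers, beside 34.9% of all genes. The mean over the 10 markers was 5.89 and 5.52 in WT 1 and WT 2, against 5.81 and 5.69 in SA 1 and SA 2. Both SA libraries therefore lay between the WT libraries, and WT 2 was the lowest. In whole-lung RNA, fewer alveolar macrophages and less marker RNA per cell cannot be told apart.

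The alveolar epithelial lists stepped the same way. All 9 genes of the alveolar type 2 list, with the surfactant genes Sftpc and Sftpa1, were lower in WT 2 than in WT 1 (median -0.33), and 8 of 9 were lower in SA 2 than in SA 1 (median -0.20). The alveolar type 1 list was lower in 8 of 8 genes in both steps. The fibroblast list went the other way, with 7 of 8 genes higher in the second library of each genotype (median steps 0.18 in WT and 0.19 in SA). Macrophage genes at large were less uniform, with 8 of 12 lower in WT 2 and 6 of 12 lower in SA 2. Lyz2, the most abundant of these and also made by type 2 cells, averaged 13.02 ± 0.24 over the WT and 12.98 ± 0.18 over the SA libraries. The part of tissue mix in the marker values was not tested.

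**Figure D3:**
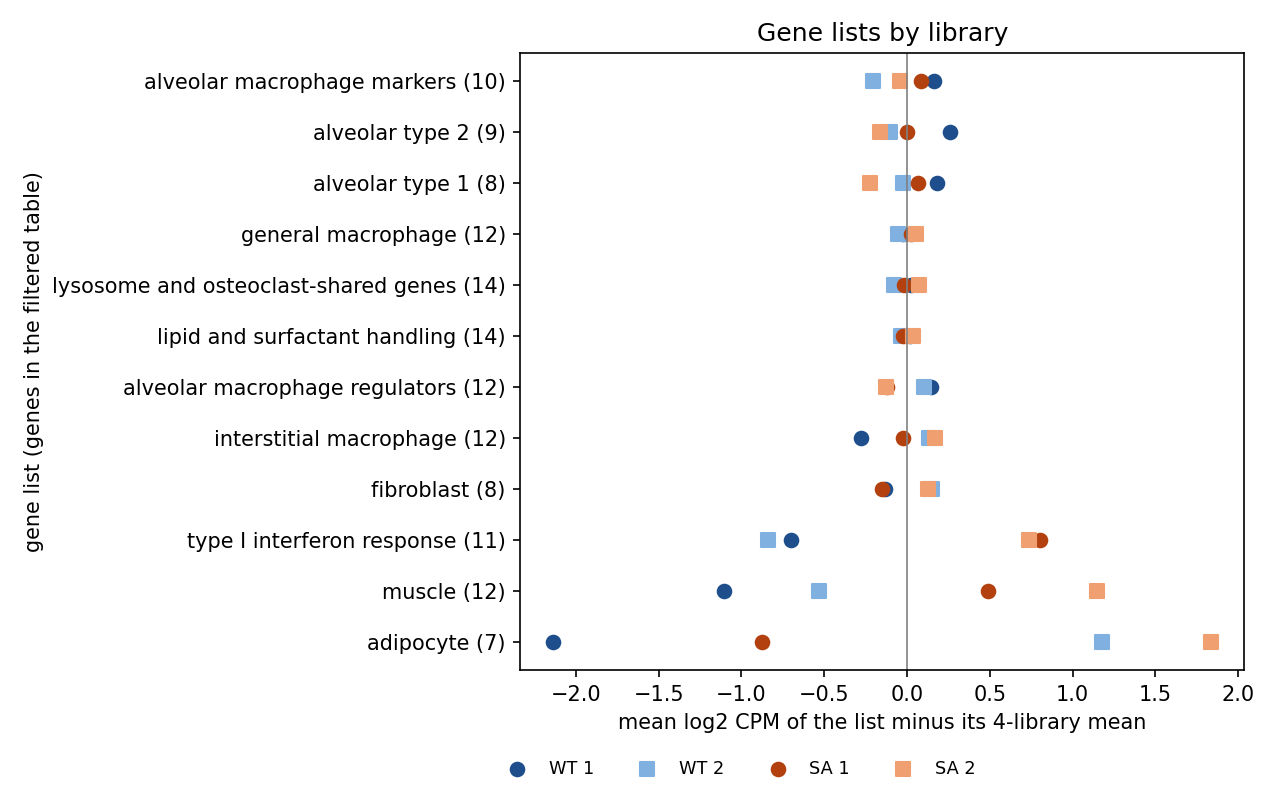
Mean log2 CPM of 12 gene lists (y axis, with the number of tested genes) in each library, minus the list's mean over the 4 libraries (x axis). The alveolar macrophage markers stay within a range of 5.52 to 5.89, WT 2 lowest and WT 1 highest, while the adipocyte list spans 2.93 to 6.90 and the interferon list separates WT from SA.

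Per unit of exon length Chil3 stood apart and most of the others formed a continuum. Chil3 was at 455 ± 73.1 CPM per kilobase of annotated exon (SD over the 4 libraries), above every other marker in all 4. Mrc1 followed at 31.0 ± 3.60, Plet1 at 29.4 ± 2.69 and Atp6v0d2 at 28.4 ± 4.13 CPM per kilobase, and these 3 ranges overlapped. Ctsk at 19.8 ± 3.49, Fabp1 at 19.2 ± 4.27 and Marco at 17.0 ± 5.54 CPM per kilobase formed the next overlapping set, below Atp6v0d2 without overlap between Atp6v0d2 and Ctsk. Siglecf at 9.58 ± 2.03, Pparg at 9.06 ± 1.89 and Krt79 at 8.73 ± 1.26 CPM per kilobase were lowest and did not differ beyond their spread.

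The markers were also compared with one another within each library, by subtracting the mean log2 CPM of all 10; this scaling was chosen after the data were seen. On this scale Ctsk, Chil3, Plet1 and Krt79 lay above the WT libraries in both SA libraries, and Siglecf, Mrc1 and Atp6v0d2 lay below. The 4 compare with 13.8% of all genes scaled the same way, the 3 with 17.1% and the 7 together with 30.9%, but the scaling removes the variation that the markers share and so favours the markers. In that fit 0 of 10 passed by limma, beside 4.28% of all genes. The largest shifts were 0.34 for Ctsk and -0.35 for Siglecf, with adjusted p of 0.93 for each by limma.

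**Figure D4:**
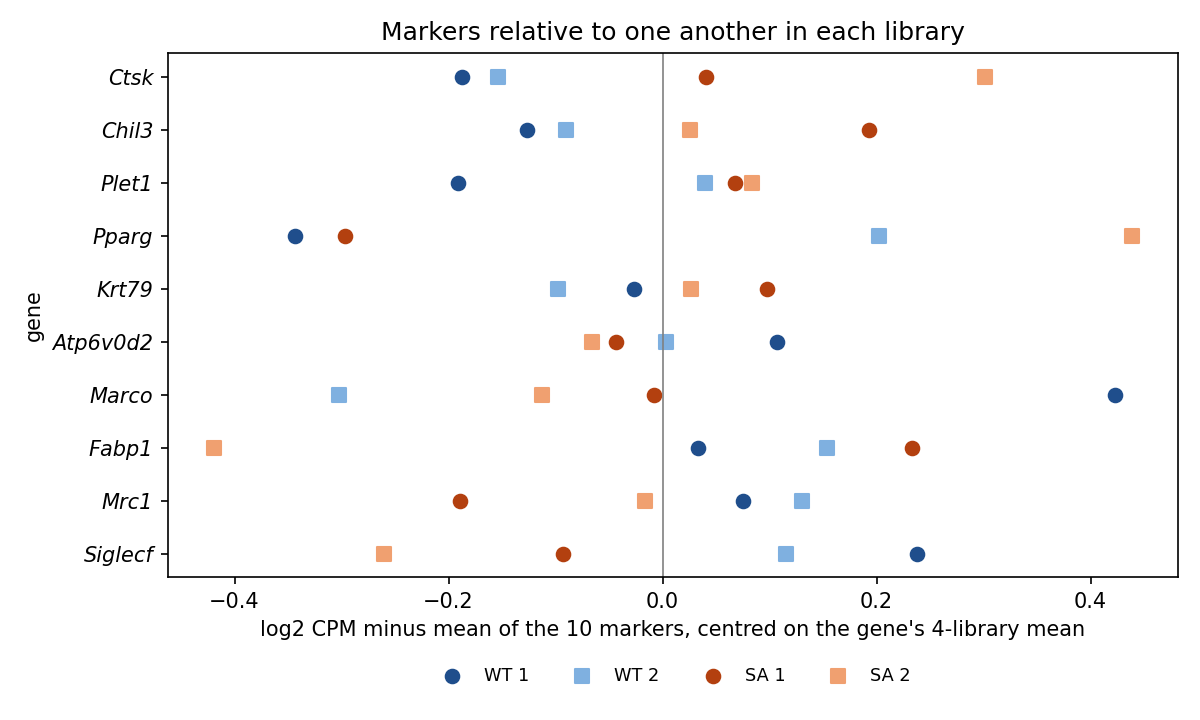
Each marker's log2 CPM minus the mean of the 10 markers in the same library, centred on the gene's mean over the 4 libraries (x axis); points are libraries, blue for WT and orange for SA. The colours separate for 7 genes, from Siglecf at a shift of -0.35 to Ctsk at 0.34, and mix for Pparg, Fabp1 and Marco.

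Further alveolar macrophage genes from textbook knowledge were also examined. None of 13 tested passed by limma and 0 by voom. Of the 13, 10 were higher and 3 lower in SA, with a median difference of 0.22, against 0.06 over all genes. In the limma fit 1, Slc7a2, had an unadjusted p under 0.05, beside 27.3% of all genes. Slc7a2, an arginine transporter gene, had means of 6.60 ± 0.13 (WT) and 6.85 ± 0.09 (SA). Krt19, Serpinb1a and Il18 differed by 0.13, 0.25 and 0.22. The eosinophil-associated ribonuclease genes Ear1 and Ear2, which mouse alveolar macrophages express, differed by 0.02 ± 0.20 and 0.15 ± 0.15 (SE) and had the first library higher in both genotypes; reads of these close paralogs can be shared. Ear10 had 0 reads in both WT libraries and at most 3 in SA. Lipid genes that adipocytes share behaved otherwise: Fabp4, a PPARG target, read 5.02 and 8.41 log2 CPM in WT 1 and WT 2, against 6.47 and 9.32 in SA 1 and SA 2, the order of the adipocyte list means.

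Among regulators of the alveolar macrophage program, 0 of 12 tested genes passed by limma and 0 by voom, while 5 had an unadjusted p under 0.05, all lower in SA, beside 27.3% of all genes in either direction. The median difference was -0.22, against 0.06 over all genes, with 10 genes lower and 2 higher in SA. For 7 of 12 both SA libraries lay below both WT libraries, beside 22.9% of all genes. The groups overlapped for Spi1 at -0.11, Bhlhe41 at -0.05, Nr1h3 at -0.01, Tgfbr1 at 0.01 and Rxra at 0.13. These are whole-lung values, and the part of other cell types in them was not tested. Klf4, a zinc finger factor also active in endothelium and epithelium, averaged 8.48 ± 0.10 over the WT and 7.48 ± 0.26 over the SA libraries, a difference of -0.99 ± 0.15 (SE; adjusted p = 0.058 by limma). Tgfb1 differed by -0.49 ± 0.11 and its receptor gene Tgfbr2 by -0.29 ± 0.09 (SE; adjusted p = 0.095 and 0.14 by limma). For granulocyte-macrophage colony-stimulating factor, the ligand gene Csf2 had 41 to 74 reads. The receptor genes Csf2ra and Csf2rb differed by -0.36 ± 0.12 and -0.30 ± 0.09 (SE, adjusted p = 0.16 and 0.14 by limma). For each of them both SA libraries lay below both WT libraries. Csf2rb2, a mouse paralog of the receptor's common beta chain, averaged 2.20 ± 0.01 over the WT and 1.63 ± 0.24 over the SA libraries in the unfiltered table (adjusted p = 0.094 by limma).

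Genes for lipid and surfactant handling numbered 0 of 14 past the threshold by limma and 0 by voom, with 1 at an unadjusted p under 0.05 and a median difference of 0.05. That 1 was Scarb1, a lipoprotein receptor, at -0.39 ± 0.12 (SE; adjusted p = 0.14 by limma). Npc1 and Npc2, which move cholesterol out of lysosomes, differed by -0.16 and 0.18, and Acadl, of fatty acid oxidation, by 0.36.

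Alternative activation genes, a program in which Chil3 and Mrc1 are also counted, did not share 1 direction. Of 5 tested genes 0 passed by limma and 0 by voom, with 1 gene above and 1 below WT at an unadjusted p below 0.05. Retnla, a secreted resistin-like protein, averaged 5.20 ± 0.31 over the WT and 6.24 ± 0.0044 over the SA libraries, a difference of 1.04 ± 0.16 (SE; adjusted p = 0.059 by limma). Il4ra, the interleukin-4 receptor chain, differed by -0.24 ± 0.06 (SE; adjusted p = 0.12 by limma) and Mgl2, a macrophage lectin, by -0.33. Ccl17, a chemokine of dendritic cells, fell by 0.70 in the unfiltered table, from 3.14 ± 0.18 to 2.44 ± 0.07 (adjusted p = 0.0081 by limma), where 4.75% of genes and 0 of the 10 markers passed.

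Outside all lists, the genes whose 4-library profile lay nearest to the mean marker profile were Lpcat1, Nceh1 and Cep83os. Their Euclidean distances were 0.013, 0.032 and 0.046 log2 units over the 4 libraries, against a median of 0.334 over the 10429 genes compared. Among the markers, each measured against the mean of the other 9, Atp6v0d2 at 0.147 and Krt79 at 0.159 lay closest and Pparg at 0.736 farthest.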

How the data were processed

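Strand-specific, rRNA-depleted total RNA libraries from 4 lungs were analysed. The deposited values are log2 CPM per gene, which the authors made with Subread, featureCounts and limma on GRCm38, per the submitters' processing notes; versions, annotation release, the strand setting and the filter behind the smaller table are not given in the sources used here. Every value equals the log2 CPM of a whole read number with 0.5 added, to a tolerance of 0.001 reads, so whole reads were recovered and used for voom. The tests used limma 3.58.1 in R 4.3.3 (linear model, empirical Bayes with trend, Benjamini-Hochberg adjustment, threshold 0.05). They compared 2 SA with 2 WT libraries on the 12850 genes of the filtered table, with 2 residual and 2.25 prior degrees of freedom. Genes absent from that table were read from a fit of the unfiltered table. That fit has its own prior, so p-values cannot be compared between the fits. The steps were tested on simulated data. A count of 0 allows up to 3 reads per library, for counting error only. Exon lengths and positions came from GENCODE M21 and promoters from RefSeq. Beyond the 10 markers and Ifnar1, the text names up to 4 genes of lowest p per related list among those with at least 10 reads in every library, the 2 most abundant genes per other cell type with defining markers at 0, and the 3 nearest profiles among genes with a mean of at least 3 log2 CPM; further genes were chosen after their values were seen. The members and lists were chosen with earlier results of these data known.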

Additional observations from a re-analysis of the deposited data

How the results depend on the processing

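Under 15 alternatives, 1 of them chosen after the data were seen, 0 of the 10 markers passed the threshold. Of 150 marker differences 143 kept their sign, and 7 turned, all on leaving out 1 library: Marco at 0.47 and Atp6v0d2 at 0.17 without WT 1, Krt79 at -0.051 without WT 2, and Marco at 0.04, Atp6v0d2 at 0.0066, Fabp1 at 0.24 and Pparg at -0.12 without SA 2. Over the 4 such fits Marco ranged from -0.62 to 0.47, Krt79 from -0.051 to 0.39, Atp6v0d2 from -0.30 to 0.17, Fabp1 from -0.53 to 0.24 and Pparg from -0.12 to 0.49. The median marker difference ranged from -0.16 (without WT 2) to 0.22 (without WT 1). The count of all genes past the threshold, 40, became 2213 in the unfiltered table, 415 with a mean of at least 1 log2 CPM, 476 with median centring, 0 with quantile normalization (3157 at an unadjusted p under 0.05), 1 without the trend, 611 with a robust trend, 268 with voom on library totals, 410 with voom on median-of-ratios scaling (165 higher, 245 lower) and 550 centred on the markers' mean (431 higher, 119 lower). Leaving out 1 library gave 0 to 6 genes; the 0 counts by limma had 1812 (without WT 1), 2791 (without SA 1) and 2284 (without SA 2) at an unadjusted p under 0.05. The causes were not tested. Median centring moved the median of all genes from 0.06 to -0.03 and quantile normalization to -0.02. With the replicate number as a block 3179 of 12850 genes and 0 markers passed. The lowest adjusted p of the markers by limma were 0.05001 for Chil3, 0.050173 for Siglecf, 0.056 for Plet1 and 0.073 for Ctsk. The other markers ran from 0.18 (Krt79) to 0.80 (Marco). The count of 0 therefore rests on a narrow margin in that fit. Same-numbered libraries deviated together over all genes (correlation 0.44). With 2 pairs and no label that ties the numbers to animals, whether they share more than a number cannot be told. Depth limits Fabp1 most, with 290 to 364 reads.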
